A study of Mus musculus with 15 samples.

Results

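Caspases are the proteases that carry out apoptosis, and the apoptosome is the complex on which the mitochondrial pathway switches the first of them on. The 8 genes described here were listed by symbol and cover that machinery, namely the apoptosome parts Cycs, Apaf1 and Casp9, the further caspases Casp8, Casp2 and Casp6, the caspase inhibitor Xiap and its antagonist Diablo. They are 8 of the 45706 genes in the count table and 8 of the 18983 that entered the tests, so that no member was lost to the filter on low counts. Every member had at least 1182 counts in each library.

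In the mitochondrial pathway, BH3-only proteins such as PUMA block anti-apoptotic BCL-2 proteins, so that BAX and BAK can open the outer mitochondrial membrane. Cytochrome c (Cycs) then leaks into the cytosol and binds APAF1, and the assembled wheel recruits and activates caspase-9. Caspase-9 then cleaves the executioner caspases unless XIAP blocks it, and SMAC, the product of Diablo, leaves the mitochondria together with cytochrome c and pulls XIAP away from the caspases. Caspase-8 starts the parallel pathway downstream of death receptors, caspase-2 responds to DNA damage and to centrosome defects, and caspase-6 is an executioner that cuts nuclear lamins. Most of this control acts on proteins, through cleavage, release and binding, and RNA levels report only the supply of the parts.

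RNA sequencing was carried out on lineage-marker negative (lin-) bone marrow cells, which are depleted of mature blood cells by magnetic sorting, from the femurs of secondary recipients. All groups had thus been through serial transplantation of LSK cells, the marrow fraction that holds the stem cells, and the donors differed in genotype. The 15 libraries comprised 3 of WT, 4 of Puma-/-, which lack the BH3-only gene Bbc3, 4 of G3 mTerc-/-Puma+/+, which lack the telomerase RNA gene Terc and come from the third generation bred without it, and 4 labelled G3 mTerc-/-Puma-/-, which carry the double-mutant label. The labels state no sort for donor cells, so host cells may remain in a library, and they name no age and no separate animal for a replicate, so that p-values measure the spread between these samples. In bulk samples, fewer cells of a type and less RNA per cell cannot be told apart.

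The libraries held 102790519 to 158367059 counts. Replicate 2 with the label G3 mTerc-/-Puma-/- lay at 129 on the first principal component of all 15 libraries, where the other 14 lay between -36.7 and 16.3, and it is not drawn in the study's heatmaps; the tests therefore used 14 libraries, and its values are given separately. Bbc3 ran from 9.67 to 23.5 normalized CPM (counts relative to the total of the library after normalization) in WT and from 5.02 to 6.80 in Puma-/-, but from 13.5 to 17.0 in the 3 tested libraries with the double-mutant label, so that these are called by their label throughout. Terc was at most 0.0098 CPM in the mTerc-/- libraries and at least 0.0354 in the others. The sex of the cells was not the same in all groups, with Xist, the RNA of the inactive X chromosome, between 464 and 865 CPM in Puma-/- and at most 88.6 in G3 mTerc-/-Puma+/+. Summed over 8 genes, markers of the neutrophil lineage ran from 12700 to 26100 CPM in the 14 libraries, and 6 progenitor markers, Kit among them, from 937 to 1380 CPM.

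All 8 genes were expressed in every library, and levels are compared between genes only as CPM per kb of exon. The length is that of all annotated exons of a gene, not of the transcripts expressed, so the order and ratios between genes may depend partly on annotation. Casp8 was the highest, at 44.5 ± 1.94 CPM per kb (SD over the 14 libraries), followed by Cycs at 35.8 ± 6.17. Then came Casp2 at 15.5 ± 1.22, Apaf1 at 12 ± 1.32, Xiap at 7.43 ± 0.796, Casp9 at 6.04 ± 0.474, Diablo at 5.63 ± 0.405 and Casp6 at 3.27 ± 0.136. Most neighbours in this order kept it in every library: Cycs exceeded Casp2 in 14 of 14, by 1.84 to 3.90 times, and Diablo exceeded Casp6 in 14 of 14. The exceptions were Casp9 over Diablo, seen in 9 of 14 libraries with ratios of 0.866 to 1.39, and Casp8 over Cycs, seen in 13 of 14. Within the apoptosome, per kb, the RNA of cytochrome c thus stood above that of Apaf1, and that of Apaf1 above that of Casp9.

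**Figure D1:**
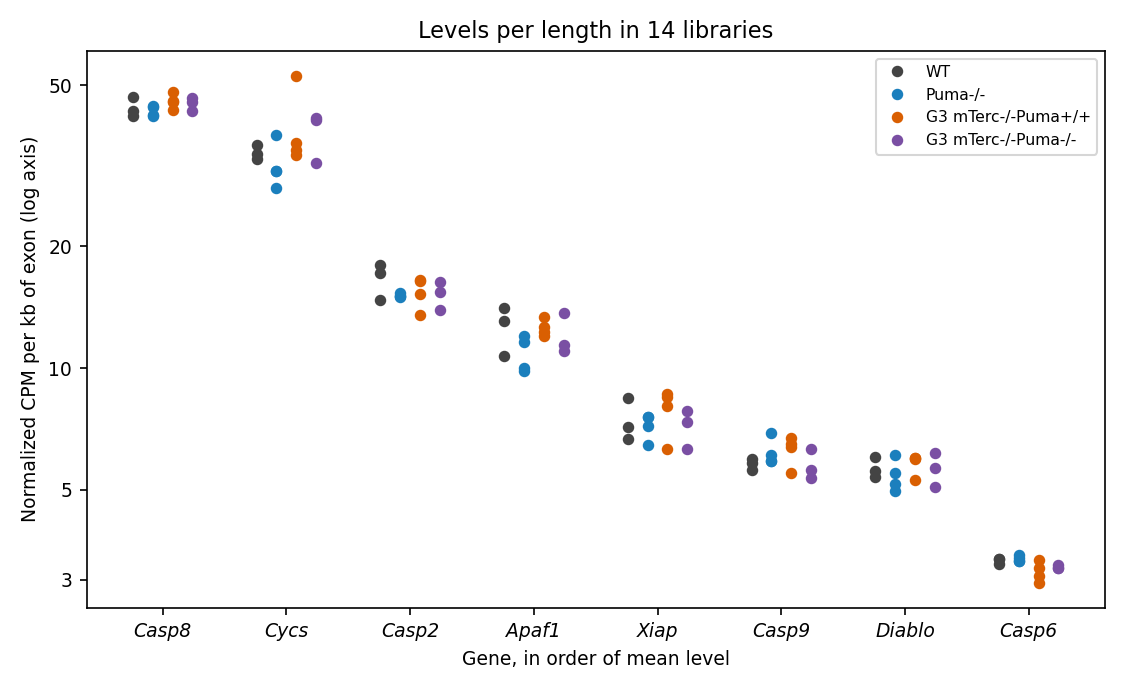
Normalized CPM per kb of exon (vertical log axis) for each gene in order of its mean, with 1 point for each of the 14 libraries, coloured by genotype. The range of Casp6, 2.95 to 3.45, lies below that of Diablo, 4.98 to 6.18, and the Casp9 and Diablo ranges overlap.

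Cycs encodes cytochrome c, the electron carrier whose release starts apoptosome assembly. The gene (ENSMUSG00000063694) lies on chromosome 6 of GRCm38 from 50562563 to 50566538 on the minus strand. The mouse genome holds processed pseudogenes of near-identical sequence, so reads shared with them may be lost or misplaced and the Cycs level is uncertain to that extent. The 250 bases before its RefSeq start (GRCm38.p6, chr6:50566570-50566819, minus strand) are shown because Cycs varied most of the 8 genes and because its promoter differs from theirs in the letters it holds. Capitals mark TGACGTCA, the full cyclic AMP response element, and TTACGTCA, which reads TGACGTAA on the other strand, a variant of it. These elements are the DNA letters that the CREB and ATF factors are known for.
Cycs promoter: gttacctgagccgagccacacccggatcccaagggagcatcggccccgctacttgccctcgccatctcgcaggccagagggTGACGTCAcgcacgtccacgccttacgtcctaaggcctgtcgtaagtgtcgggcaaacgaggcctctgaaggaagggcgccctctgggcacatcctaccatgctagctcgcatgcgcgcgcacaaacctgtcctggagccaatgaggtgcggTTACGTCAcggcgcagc
The first element begins 169 bases before the start and the second 17 bases before it. Searched on both strands in windows of 300 bases (250 before to 50 after the start), TGACGTCA was in 1.79% of 32851 RefSeq promoters and TGACGTAA in 0.499%, and among the promoters of the 8 genes, all of which matched, only that of Cycs held either. The common elements CCAAT and GGGCGG were in 4 and 7 of the 8 genes, and in 37.4% and 35.7% of all promoters. Such matches describe letters, not binding.

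Cycs stood at 112, 115 and 121 CPM in the 3 WT libraries, in order of replicate, and at 94.9, 104, 128 and 104 CPM in Puma-/-. It stood at 114, 179, 117 and 123 CPM in G3 mTerc-/-Puma+/+ and at 110, 140 and 141 CPM in replicates 1, 3 and 4 with the double-mutant label. Replicate 2 of G3 mTerc-/-Puma+/+ stood alone at the top, and the 4 genotypes overlapped. The mean was 108 ± 14.2 CPM in Puma-/- (SD, n = 4), and G3 mTerc-/-Puma+/+ had 133 ± 30.8 CPM (n = 4). The log2 fold change was 0.31 (SE 0.139, 95% interval 0.0066 to 0.60, adjusted p = 0.285 in edgeR's quasi-likelihood test, where 17.0% of genes had an unadjusted p under 0.05). Without G3 mTerc-/-Puma+/+ replicate 2 the log2 fold change was 0.14, and with the Xist level as a covariate it was 0.098. Xist did not overlap between these groups, so values with the Xist covariate in this contrast, here and below, cannot separate sex from genotype. G3 mTerc-/-Puma+/+ replicate 2 also had the highest neutrophil marker sum of the 14 libraries, 26100 CPM, and the lowest erythroid one, 26.3 CPM. The part of either in its Cycs level was not tested.

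With both Puma labels in 1 contrast, mTerc-/- libraries had more Cycs than mTerc+/+ libraries by a log2 difference of 0.24 (SE 0.106, 95% interval 0.0088 to 0.47), the only member whose interval left out 0 in this contrast. The adjusted p was 0.628 in edgeR's test, so Cycs was not called, and 7.63% of all genes had an unadjusted p under 0.05 here as Cycs did. Leaving out G3 mTerc-/-Puma+/+ replicate 2 brought this difference to 0.15, and the Xist covariate to 0.13. The interaction of mTerc and Puma, which asks whether the difference depends on the Puma label, was 0.070 for Cycs on the log2 scale (95% interval -0.39 to 0.53).

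Apaf1 (ENSMUSG00000019979, chromosome 10, 90989311 to 91082770, minus strand), the scaffold of the apoptosome and a known target of p53, stood at 118, 96.7 and 128 CPM in WT and at 109, 88.6, 90.4 and 104 CPM in Puma-/-. The G3 mTerc-/-Puma+/+ libraries had 121, 109, 111 and 114 CPM, and replicates 1, 3 and 4 with the double-mutant label had 123, 103 and 99.7 CPM. The Puma-/- libraries filled most of the low end, 3 of the 4 below every G3 mTerc-/-Puma+/+ library, but the groups met at 109 CPM. The log2 fold change of G3 mTerc-/-Puma+/+ against Puma-/- was 0.21 (SE 0.0997, adjusted p = 0.298 in edgeR's test), and that of Puma-/- against WT was -0.22 (SE 0.107, adjusted p = 0.520). Both contrasts share the Puma-/- libraries. Exact two-sided permutation over the 4 and 4 libraries gave p = 0.0571 for the first, where 0.0286 is the smallest possible.

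Casp9, the initiator caspase of the apoptosome (ENSMUSG00000028914, chromosome 4, 141793612 to 141815976, plus strand), stood at 30.2, 29.1 and 31.0 CPM in WT, and at 36.0, 30.7, 30.7 and 31.8 CPM in Puma-/-. It stood at 35, 28.6, 33.1 and 33.8 CPM in G3 mTerc-/-Puma+/+ and at 32.8, 27.8 and 29.1 CPM in the libraries with the double-mutant label. The genotype means spanned only 29.9 to 32.6 CPM. The largest of its 6 pairwise log2 fold changes was -0.13 (SE 0.0900, 95% interval -0.32 to 0.068), between the libraries with the double-mutant label and G3 mTerc-/-Puma+/+. Its interaction of mTerc and Puma, -0.23 (SE 0.127, adjusted p = 0.999 in edgeR's test), was the interaction of largest size among the 8 genes. Of its exonic bases 1.81% also lie in exons of Cela2a and Ctrc on the other strand.

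**Figure D2:**
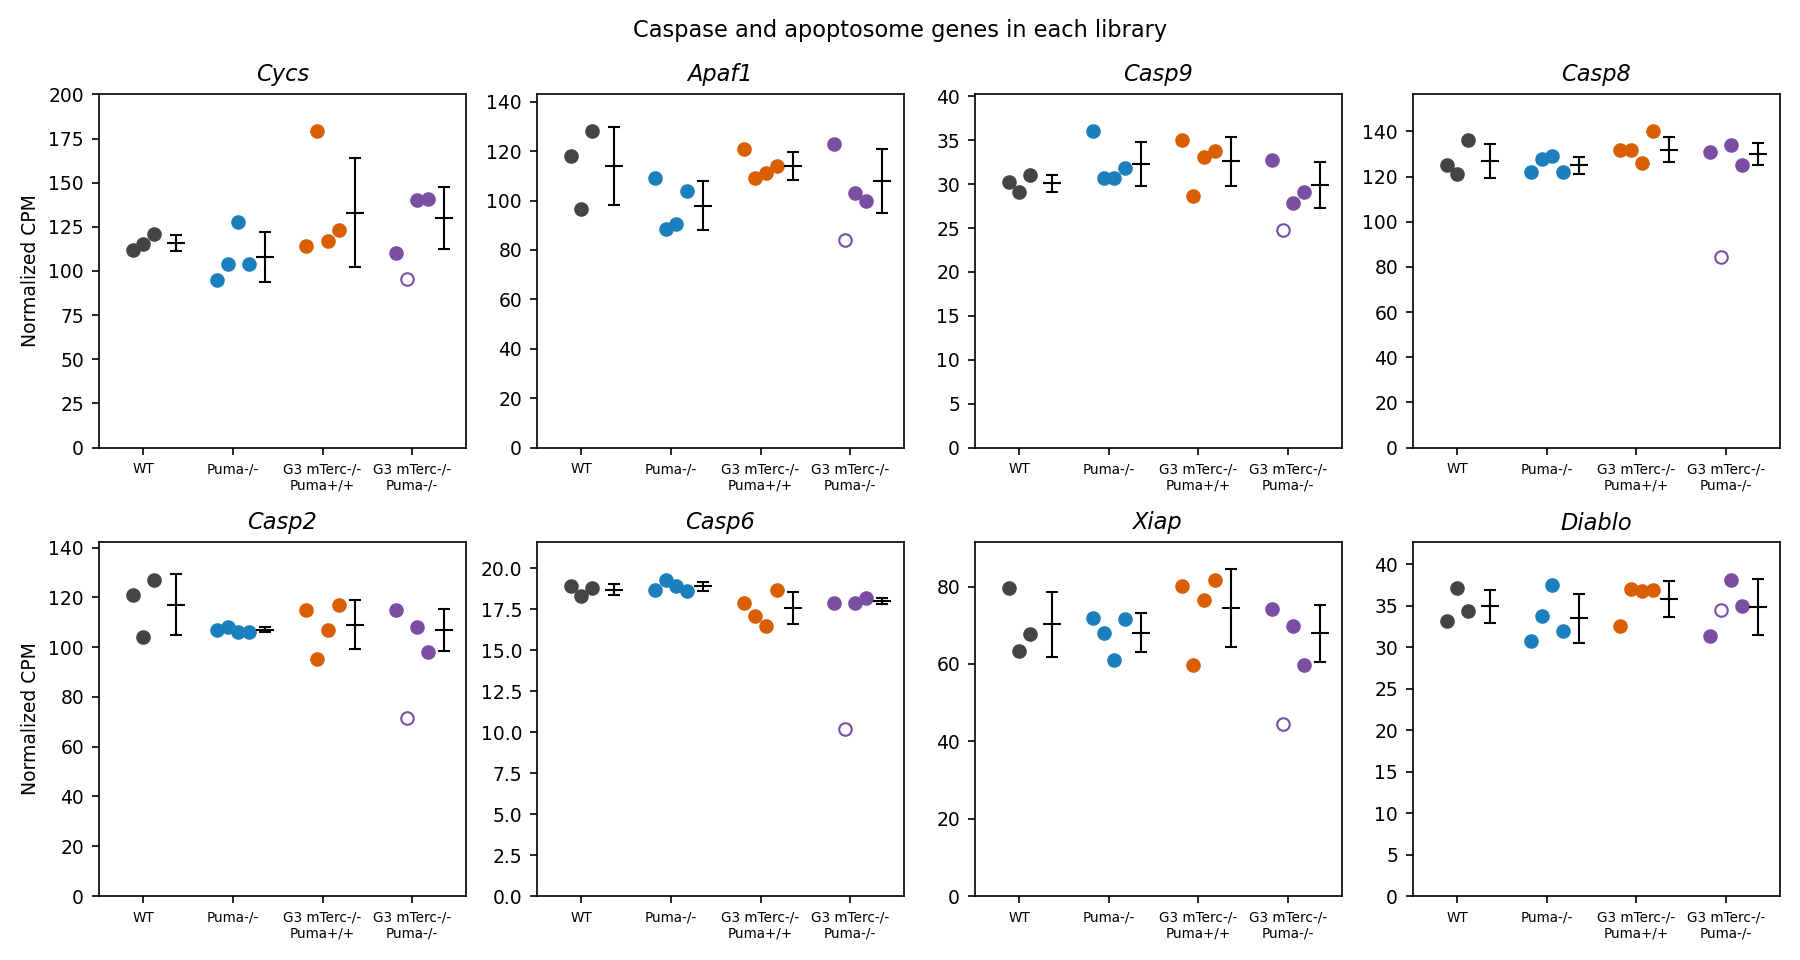
Normalized CPM (vertical axes from 0) of the 8 genes in each library by genotype, with black bars for the mean and SD of the libraries tested and an open circle for replicate 2 with the double-mutant label, which was left out of the tests. The genotypes overlap in nearly every panel, Cycs has 1 library at 179 CPM, and the open circle is the lowest of the 15 points for 6 genes.

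The 4 caspases among the members share the active-site cysteine that gives the family its name. The 30 coding bases around it are shown for each, read from GENCODE vM21 transcripts on GRCm38, with the cysteine codon in capitals, since their counts are compared here and shared sequence is where reads of relatives could be mixed.
Casp8: tttttcattcaggctTGCcaaggaagtaac
Casp9: ttcttcatccaggccTGCggtggtgagcag
Casp2: ttcttcatccaagcaTGTcgtggagatgag
Casp6: tttatcatccaggccTGTcggggtagccag
The cysteine of Casp8 is codon 382 of 500 in the transcript read, and its stretch lies in exon 9 (chr1:58844604-58844633). Those of Casp9 (codon 325 of 454, chr4:141807238-141811543, exons 6 and 7), Casp2 (codon 320 of 452, chr6:42276761-42279781, exons 8 and 9) and Casp6 (codon 146 of 276, chr3:129910687-129912135, exons 5 and 6) each cross an intron, and all 4 genes lie on the plus strand. In this stretch the pairs shared 18 (Casp8 and Casp9) to 23 (Casp2 and Casp9) of 30 bases. The rest of the transcripts was not compared, and the sharing of reads was not tested.

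Casp8 (ENSMUSG00000026029, chromosome 1, 58795374 to 58847503), the initiator at death receptors and the brake on necroptosis, was both the highest gene per kb and among the steadiest. It stood at 125, 121 and 136 CPM in WT and at 122, 128, 129 and 122 CPM in Puma-/-. It stood at 132, 132, 126 and 140 CPM in G3 mTerc-/-Puma+/+ and at 131, 134 and 125 CPM in the libraries with the double-mutant label. The highest library was 1.15 times the lowest. Its 6 pairwise log2 fold changes lay between -0.025 and 0.079, and the widest 95% interval reached 1.15-fold. Larger differences in mean Casp8 RNA thus fell outside every interval, for the 14 libraries tested.

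Casp2 (ENSMUSG00000029863, chromosome 6, 42264985 to 42282508), which is activated on the PIDDosome, stood at 121, 104 and 127 CPM in WT and within 106 to 108 CPM in all 4 Puma-/- libraries. The G3 mTerc-/-Puma+/+ libraries spread from 95.3 to 117 CPM and the 3 with the double-mutant label from 97.9 to 115 CPM. WT had the highest mean, 117 ± 12.3 CPM (SD, n = 3), and the other groups had means of 107 to 109 CPM. Against WT the log2 fold changes were -0.13 for Puma-/-, -0.11 for G3 mTerc-/-Puma+/+ and -0.13 for the libraries with the double-mutant label, all with the same WT libraries, and every interval held 0 (lowest bound -0.34).

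Casp6 (ENSMUSG00000027997, chromosome 3, 129901425 to 129914103), an executioner caspase, was the lowest gene of the 8 per kb and had the smallest SD within genotypes, while its highest library was 1.17 times its lowest, beside 1.15 for Casp8. It stood at 18.9, 18.3 and 18.8 CPM in WT and at 18.7, 19.3, 18.9 and 18.6 CPM in Puma-/-. It stood at 17.9, 17.1, 16.5 and 18.7 CPM in G3 mTerc-/-Puma+/+ and at 17.9, 17.9 and 18.2 CPM in the libraries with the double-mutant label. The latter 3 lay below every WT and every Puma-/- library, the only 2 non-overlapping pairs of groups among the 48 of 8 genes and 6 comparisons. Over all genes tested, 8.03% of such pairs did not overlap, with 8.52% and 9.54% in these 2 comparisons. The difference from Puma-/- was small, a log2 fold change of -0.069 (SE 0.0729, 95% interval -0.23 to 0.087, adjusted p = 0.866 in edgeR's test), with an exact two-sided permutation p = 0.0286, the smallest that 3 against 4 libraries allow. That is 1 of 48 permutation tests with p under 0.05.

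Xiap (ENSMUSG00000025860), which binds and inhibits caspase-9 and the executioner caspases, lies on the X chromosome from 42059679 to 42109656 on the plus strand. It stood at 79.6, 63.3 and 67.7 CPM in WT and at 71.8, 68.0, 61.0 and 71.7 CPM in Puma-/-. It stood at 80.1, 59.8, 76.4 and 81.7 CPM in G3 mTerc-/-Puma+/+ and at 74.2, 69.7 and 59.7 CPM in the libraries with the double-mutant label. Every genotype had libraries both above and below 70 CPM. The largest log2 fold change was -0.13 (SE 0.117, 95% interval -0.39 to 0.12) for the libraries with the double-mutant label against G3 mTerc-/-Puma+/+. Between G3 mTerc-/-Puma+/+ and Puma-/- its log2 fold change was 0.13 (adjusted p = 0.577 in edgeR's test), and 0.21 with the Xist covariate (adjusted p = 0.626). Its within-genotype correlation with Xist was r = 0.395 (Spearman's rho 0.393, n = 14, permutation p = 0.260, adjusted p = 0.654 over 88 relations), and the part of the sex of the cells in its level was not tested further.

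Diablo (ENSMUSG00000029433, chromosome 5, 123509765 to 123524176, minus strand), whose product frees caspases from XIAP, shares 40.85% of its exonic bases with other genes. The sharing is with Gm49027 on the same strand (19.35%) and, on the other strand, with B3gnt4 (21.51%) and a further annotated transcript (1.98%), so the reads of these genes may not be told apart and its values are uncertain to that extent. It stood at 33.2, 37.1 and 34.3 CPM in WT and at 30.7, 33.8, 37.5 and 31.9 CPM in Puma-/-. It stood at 32.6, 37.0, 36.8 and 36.9 CPM in G3 mTerc-/-Puma+/+ and at 31.3, 38.1 and 34.9 CPM in the libraries with the double-mutant label. The largest log2 fold change was 0.097 (SE 0.0828, 95% interval -0.080 to 0.27), between G3 mTerc-/-Puma+/+ and Puma-/-.

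The comparisons of genotypes ask whether the RNA of this machinery differed with the mTerc and Puma genotypes as labelled, and since Bbc3 was not reduced in the libraries with the double-mutant label (log2 fold change -0.22 against WT, adjusted p = 1.0 in edgeR's test), those libraries cannot be read as lacking Bbc3 RNA. Between Puma-/- and WT, 0 of 8 members passed an adjusted p of 0.05 (edgeR's quasi-likelihood test, Benjamini-Hochberg adjustment over all genes), where 0.0843% of all genes tested passed. The same count of 0 of 8 held for G3 mTerc-/-Puma+/+ against WT (0.0369% of genes passed) and for the libraries with the double-mutant label against WT (0.0632%). It held against Puma-/- for G3 mTerc-/-Puma+/+ (0.817%) and for the libraries with the double-mutant label (0.332%), and between the mTerc-/- groups (0.0685%). It also held for the interaction of mTerc and Puma (0.0421%), for mTerc-/- against mTerc+/+ with both Puma labels (0.263%) and for any difference among the 4 genotypes (0.527%). These comparisons share libraries and are not independent. With backgrounds this low, a count of 0 among 8 genes does not set the members apart from other genes.

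At an unadjusted p under 0.05, 1 of the 48 pairwise contrasts of the members passed, that of Cycs between G3 mTerc-/-Puma+/+ and Puma-/-, where 8.38% of such contrasts did over all genes. The limma-voom and DESeq2 tests likewise called 0 of 8 members in every comparison, and among 25 settings the lowest adjusted p of a member was 0.140, for Cycs. The 95% intervals put bounds on what was missed in the 14 libraries tested, for each contrast on its own and not for all jointly. They leave out replicate 2 with the double-mutant label. With it, the log2 difference of that group from Puma-/- in mean log2 CPM was -0.274 for Casp6, beside -0.0688 without it. For Diablo it was 0.0522, beside 0.0536. In 46 of 48 contrasts the whole interval lay within 1.5-fold either way, and the other 2 were of Cycs, with an upper bound of at most 1.52-fold. The bounds reached 1.36-fold for Apaf1, 1.31-fold for Xiap, 1.26-fold for Casp2, 1.25-fold for Casp9, 1.21-fold for Diablo, 1.19-fold for Casp6 and 1.15-fold for Casp8.

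As a group, the members had a median log2 fold change of -0.051 for Puma-/- against WT, with 2 of 8 above 0, where 50.9% of all genes tested were above 0. The median was 0.046 for G3 mTerc-/-Puma+/+ (5 of 8 above 0, beside 54.5% of genes) and -0.028 for the libraries with the double-mutant label (2 of 8, beside 50%), both against WT. Against Puma-/- it was 0.088 for G3 mTerc-/-Puma+/+ (7 of 8, beside 49.9%) and 0.028 for the libraries with the double-mutant label (5 of 8, beside 52.0%). Between the mTerc-/- groups it was -0.038, with 1 of 8 above 0, beside 46.3% of genes. None of these members passed the test, and the median size of a member's log2 fold change was below that of all genes in each pair, for instance 0.10 beside 0.17 between G3 mTerc-/-Puma+/+ and Puma-/-. The median within-genotype SD of log2 CPM was 0.237 over all genes tested. It was 0.142 over those with a mean of at least 10 CPM, as every member had. Sizes were not compared at matched levels, so the smaller ones do not set the members apart. G3 mTerc-/-Puma+/+ and Puma-/- also differed in marker levels without overlap. The sum of 4 megakaryocyte markers was 282 to 457 CPM in Puma-/- and 141 to 190 in G3 mTerc-/-Puma+/+, and that of 8 B lineage markers was 72.6 to 83.9 and 39.5 to 53.8. Their part in the member differences was not tested.

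**Figure D3:**
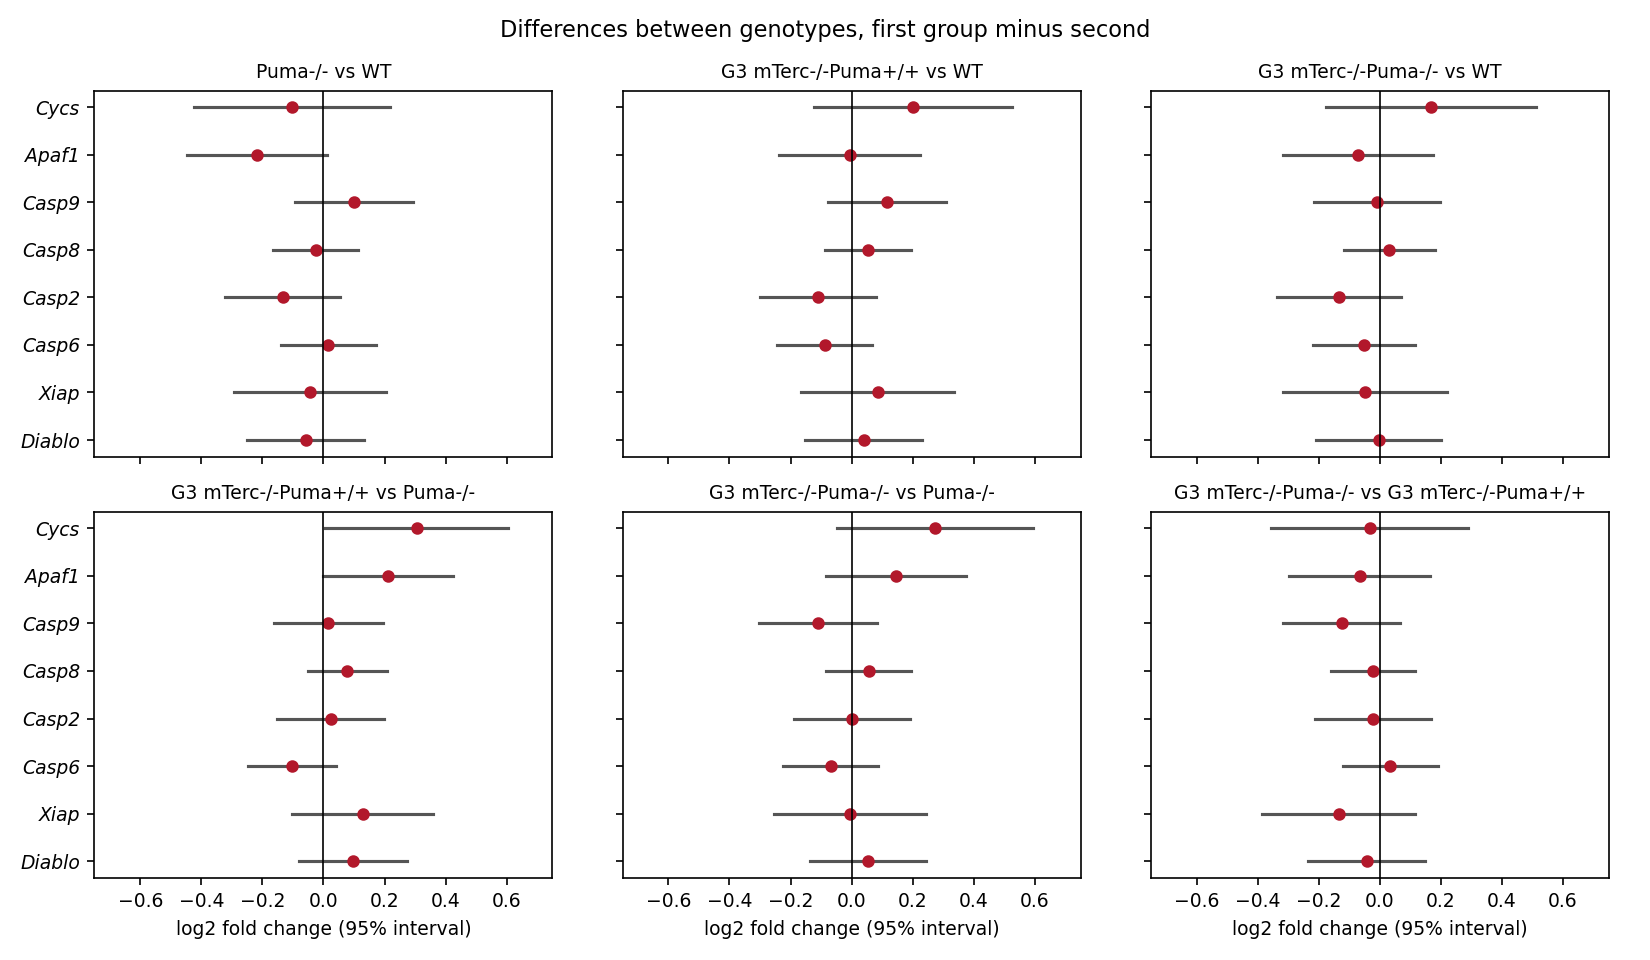
Log2 fold changes of the 8 genes (points) with 95% intervals (lines) for the 6 pairs of genotypes, the first group named minus the second, on 1 shared axis. Among the 48 intervals the only one that leaves out 0 is that of Cycs between G3 mTerc-/-Puma+/+ and Puma-/-, 0.0066 to 0.60.

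The balance between inhibitor and partners was followed as ratios per kb within a library, which do not depend on scaling between libraries. Diablo stood at 0.773 ± 0.129 of Xiap in WT (SD, n = 3) and at 0.762 ± 0.129 in Puma-/- (n = 4). The G3 mTerc-/-Puma+/+ libraries had 0.752 ± 0.140 (n = 4), and those with the double-mutant label 0.795 ± 0.13 (n = 3). The means thus differed by less than the spread between replicates. The Casp9 ratio to Xiap had means of 0.787 to 0.864 and the Apaf1 ratio means of 1.51 to 1.71, each with its extremes in Puma-/- and WT. For Apaf1 to Xiap the log2 difference between Puma-/- and WT was -0.17 (exact two-sided permutation p = 0.143), and none of the 18 ratio tests had p under 0.05.

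Although genotypes differed little, libraries of 1 genotype differed from each other, by amounts that depended on the gene. The within-genotype SD of log2 CPM was 0.047 for Casp6 and 0.061 for Casp8, and only 0.372% and 2.22% of the 9142 genes with a mean of at least 10 CPM had a smaller one. Cycs was at the other end with 0.216, above 82.0% of those genes. The remaining 5 members lay between 0.110 and 0.166, around the median of 0.142 over those genes.

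For the 28 pairs of members, correlations were computed over the 14 libraries after removing the genotype means, with libraries permuted within genotypes and Benjamini-Hochberg adjustment over the 28. Apaf1 and Casp9, which assemble into 1 complex, rose and fell together between libraries (r = 0.728, Spearman's rho 0.763, permutation p = 0.0002, adjusted p = 0.0056). Cycs and Xiap moved oppositely (r = -0.832, rho -0.829, permutation p = 0.00435, adjusted p = 0.0457), and so did Apaf1 and Diablo (r = -0.791, rho -0.745, permutation p = 0.0049, adjusted p = 0.0457). These 3 pairs passed by r, and by rho the first 2 did, with an adjusted permutation p of 0.0661 for Apaf1 and Diablo. The share of such pairs among other genes was not computed, so these counts do not set the members apart. Genes outside the lists reached r of 0.874 to 0.977 with single members when genotype means were kept, as given below. Without the 2 libraries farthest from the median of the first gene, r was 0.717 for Apaf1 and Casp9, -0.631 for Cycs and Xiap and -0.740 for Apaf1 and Diablo.

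The correlation of largest size, between Casp9 and Cycs (r = -0.854, rho -0.824, permutation p = 0.00839), missed the threshold with an adjusted p of 0.0554, and r was -0.770 without the 2 farthest libraries. Casp2 and Xiap had r = 0.790 (permutation p = 0.0119, adjusted p = 0.0558). The coefficients fell into 2 blocks, with Apaf1, Casp9, Xiap and Casp2 positively correlated among themselves (r of 0.586 to 0.790), and Cycs and Diablo correlated with each other (r = 0.642) and negatively with all 4. Casp8 and Casp6 were correlated with each other (r = 0.605) and with Casp2 (r = 0.612 and 0.485), none of which passed after adjustment, and had r of -0.112 to 0.293 to the remaining genes. With genotype means left in, 0 of the 28 correlations passed by r. By rho 1 did, that of Cycs and Diablo (rho 0.789, adjusted p = 0.035 by permutation). With all 15 libraries 8 passed by r, all of them positive. Of the pairs named above, Cycs and Xiap then had r = -0.173 (adjusted p = 0.728 by permutation, r = 0.290 without the 2 farthest libraries). For Casp9 and Cycs r was -0.354, and for Apaf1 and Diablo it was -0.652 (adjusted p = 0.0692 by permutation).

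**Figure D4:**
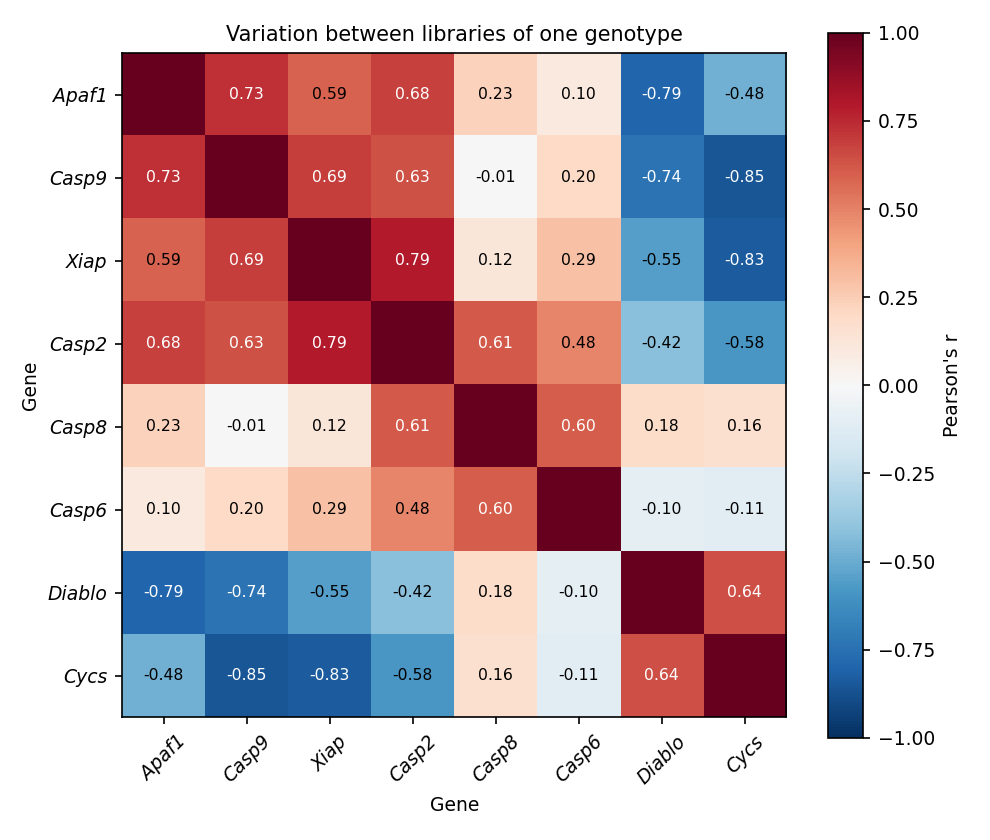
Pearson's r of log2 CPM between the 8 genes over 14 libraries after removing genotype means, with each value printed in its cell and the colour scale from -1 to 1. Apaf1, Casp9, Xiap and Casp2 form a positive block, and Cycs and Diablo are negative against it.

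**Figure D5:**
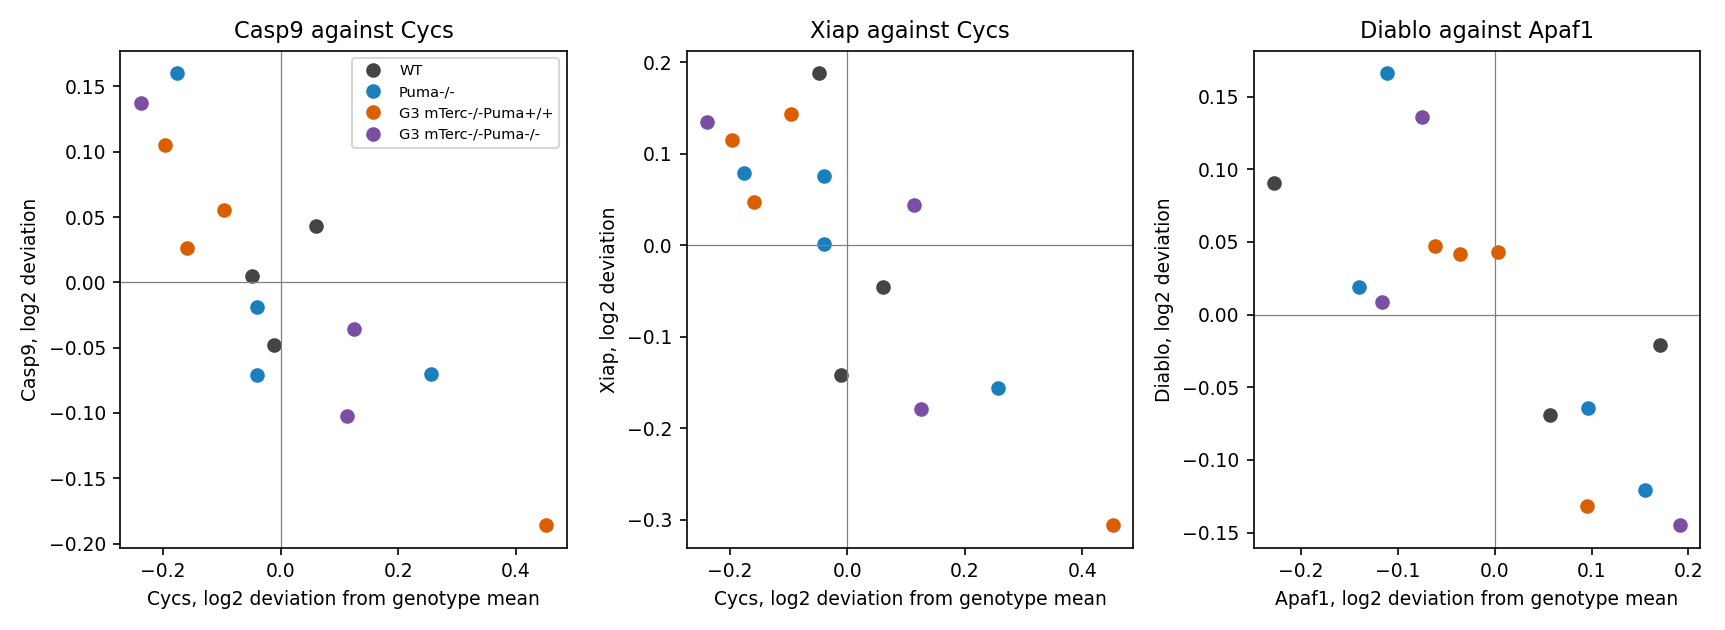
Log2 deviations from the genotype mean, 1 point per library coloured by genotype, for Casp9 and Xiap against Cycs and for Diablo against Apaf1. G3 mTerc-/-Puma+/+ replicate 2 lies at the far right of the first 2 panels. Without it and Puma-/- replicate 1, r is -0.770 for Casp9 and Cycs. Without it and Puma-/- replicate 3, r is -0.631 for Xiap and Cycs.

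After adjustment over 88 relations of members with 11 measures of cell makeup and depth, 0 passed (lowest adjusted p = 0.168). Before adjustment, the summed neutrophil markers had, within genotypes, r = 0.657 with Cycs, -0.696 with Xiap and -0.641 with Casp2 (n = 14, permutation p = 0.0262, 0.0137 and 0.00521), and the erythroid markers r = 0.776 with Casp2 (permutation p = 0.00191). The monocyte and macrophage markers had r = 0.700 with Apaf1 (permutation p = 0.0110). Xist had r = -0.636 with Cycs (permutation p = 0.0146), and -0.363 without the 2 libraries farthest from the median of Xist. Total counts had r = 0.655 with Casp9 (permutation p = 0.0359). With Apaf1 and Diablo, the other genes of the called pairs with Casp9 or Apaf1, they had r = 0.564 and -0.575 (permutation p = 0.0694 and 0.0822). The part of cell makeup or depth in the correlations between members was not tested.

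Replicate 2 with the double-mutant label, left out of the tests, had the lowest level of all 15 libraries for 6 of the 8 genes, where 23.8% of all genes tested were lowest there. Casp6 stood at 10.2 CPM, Casp8 at 84.5, Casp2 at 71.5, Xiap at 44.4, Apaf1 at 84.2 and Casp9 at 24.8. Cycs, at 95.6 CPM, was above 1 other library, and Diablo, at 34.5 CPM, was in the middle. Against the mean of the other 3 libraries of its label, its log2 level differed by -0.82 for Casp6, by -0.62 for Casp8, by -0.61 for Xiap and by -0.0057 for Diablo, beside a median of 0.0093 over all genes. Its erythroid marker sum was 1360 CPM, where the other 14 libraries had 26.3 to 208, and its neutrophil sum was 29000; the part of these in the member levels was not tested.

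The further genes of the pathway were followed in 6 lists of 57 genes, of which 54 were tested. In edgeR's test 0 of 54 passed in any comparison, and 5 of 54 had an unadjusted p under 0.05 over the 4 genotypes, where 11.1% of all genes tested did. The limma-voom test called 0. DESeq2 called 4, namely Mlkl, Bid and Hsp90aa1 between G3 mTerc-/-Puma+/+ and Puma-/-, where it called 5.25% of all genes, and Tnfrsf10b in several contrasts, among them that between the libraries with the double-mutant label and WT, where it called 0.479%. In the first of these contrasts, which had the most calls over all genes, the genes above 0 were 11 of 12 in the death receptor and caspase-8 list, 10 of 10 among the apoptosome modulators and mitochondrial death factors, 3 of 5 other caspases, 3 of 11 inhibitors and antagonists, 3 of 4 in the list of activation platforms and 9 of 12 caspase substrates, beside 49.9% of all genes. The lists were not tested as groups, and the megakaryocyte and B lineage markers differed between the same libraries as given above.

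On the caspase-8 side, Mlkl, the pore former of necroptosis that caspase-8 restrains, came nearest to a call. Its log2 fold change between G3 mTerc-/-Puma+/+ and Puma-/- was 0.42 (SE 0.0929, adjusted p = 0.0509 in edgeR's test). Its 4 Puma-/- libraries stood at 45.9 to 48.3 CPM, below the 54.1 to 72.5 CPM of G3 mTerc-/-Puma+/+, the 54.9 to 68.5 of WT and the 55.6 to 58.6 of the libraries with the double-mutant label. Between G3 mTerc-/-Puma+/+ and Puma-/-, 10.8% of all genes did not overlap. Against WT the log2 fold change of Mlkl was -0.35 for Puma-/- (adjusted p = 0.353 in edgeR's test) and 0.064 for G3 mTerc-/-Puma+/+ (adjusted p = 0.998). It passed with DESeq2 (adjusted p = 0.00292), without the count filter (edgeR adjusted p = 0.0405) and without WT replicate 3 (edgeR adjusted p = 0.0330). Using DESeq2 size factors in edgeR, or leaving out WT replicate 2 or G3 mTerc-/-Puma+/+ replicate 4, also let it pass. In the other settings it did not pass, among them limma-voom, all 15 libraries, the replicate block, the Xist covariate and only the groups compared. Bid, the BH3-only protein through which caspase-8 reaches the mitochondria, differed in the same contrast by 0.28 (SE 0.0697, adjusted p = 0.0718), with 87.9 to 104 CPM in Puma-/- and 113 to 120 in G3 mTerc-/-Puma+/+. WT had 106 to 121 CPM, and the log2 fold change of Puma-/- against WT was -0.24 (adjusted p = 0.388 in edgeR's test). Tnfrsf10b, the TRAIL receptor gene and a p53 target, stood at 2.27 to 2.62 CPM in WT and 2.67 to 3.12 in Puma-/-. It stood at 3.09 to 4.44 CPM in G3 mTerc-/-Puma+/+ and 3.77 to 4.81 in the libraries with the double-mutant label. Against WT the log2 fold changes were 0.55 (adjusted p = 0.996 in edgeR's test) and 0.74 (SE 0.170, adjusted p = 0.275) for these 2 groups. With both Puma labels, mTerc-/- exceeded mTerc+/+ by 0.53 (SE 0.112, adjusted p = 0.0804 in edgeR's test). DESeq2 gave an adjusted p of 0.000231 there and called 252 genes. Its level in the library left out was 11.4 CPM.

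Among inhibitors and their antagonists, Xaf1, an antagonist of XIAP that interferon induces, stood at 7.84 to 12.9 CPM in G3 mTerc-/-Puma+/+ and at 14.1 to 14.4 in the libraries with the double-mutant label (log2 fold change 0.59, SE 0.170, adjusted p = 0.331). Birc5, or survivin, differed by 0.24 (adjusted p = 0.233 in edgeR's test) between G3 mTerc-/-Puma+/+ and Puma-/-. Naip1 was near the detection limit, at most 0.194 CPM. The sums of 8 interferon-stimulated genes were 93.2 to 160 CPM and 165 to 173 CPM in the groups compared for Xaf1, and their part in its difference was not tested.

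Among the apoptosome modulators and mitochondrial factors, the chaperone gene Hsp90aa1 stood at 636 to 756 CPM in Puma-/- and at 672 to 1320 in G3 mTerc-/-Puma+/+, and differed by 0.49 (SE 0.156, adjusted p = 0.144 in edgeR's test). Its highest library was replicate 2, the one with the most Cycs. Chchd2 and Aifm1, which encode proteins of the mitochondrial intermembrane space, differed by 0.37 and 0.22 in the same contrast (adjusted p = 0.260 and 0.267 in edgeR's test), and both had their highest level in that same replicate (237 and 75.8 CPM). Without it the log2 fold changes were 0.30 for Hsp90aa1, 0.21 for Chchd2 and 0.12 for Aifm1, and with the Xist covariate those of Chchd2 and Aifm1 were 0.15 and 0.086.

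Among the other caspases tested, 0 passed. Casp1, the inflammasome caspase, had 52.2 to 65.7 CPM in Puma-/- and 63.9 to 74.1 in G3 mTerc-/-Puma+/+ (log2 fold change 0.20, adjusted p = 0.246 in edgeR's test, 0.092 with the Xist covariate). Casp12 was low throughout, at 1.91 to 5.56 CPM. A short list of activation platforms held the PIDDosome genes Pidd1 and Cradd, which serve caspase-2, beside the inflammasome genes Nlrc4 and Pycard, which serve caspase-1. Pidd1, a p53 target, differed by 0.17 between G3 mTerc-/-Puma+/+ and Puma-/- (adjusted p = 0.228), and Cradd by -0.21 between G3 mTerc-/-Puma+/+ and WT (adjusted p = 0.998 in edgeR's test, -0.12 without WT replicate 3). Pycard, which encodes the adaptor ASC, differed by 0.23 between the libraries with the double-mutant label and Puma-/- (adjusted p = 0.593).

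Among caspase substrates, the lamin genes differed most. Lmna, a target of caspase-6, stood at 8.21 to 11.6 CPM in G3 mTerc-/-Puma+/+ and at 11.1 to 14.3 in the libraries with the double-mutant label (log2 fold change 0.44, SE 0.143, adjusted p = 0.465 in edgeR's test), and at 55.7 CPM in the library left out. Lmnb1 differed by -0.25 between Puma-/- and WT (adjusted p = 0.473, -0.13 without WT replicate 3), and Xkr8, the caspase-cleaved lipid scramblase, differed by 0.22 between G3 mTerc-/-Puma+/+ and WT (adjusted p = 0.998, 0.13 without WT replicate 3 and 0.38 without WT replicate 2).

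For each member, the gene outside the lists with the most similar log2 CPM over the 14 libraries, out of 18824 compared, was named as a description. These were Dhrs13 for Cycs (r = 0.977), Foxn2 for Apaf1 (0.945), Nek7 for Casp2 (0.934), Atl3 for Xiap (0.922), 5730480H06Rik for Diablo (0.922), Cstf2t for Casp9 (0.895), Cbx3 for Casp8 (0.884) and 2810468N07Rik for Casp6 (0.874). The highest of so many coefficients is high by selection, and the libraries shared their depth and cell makeup.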

How the data were processed

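RNA of lin- bone marrow cells from secondary recipients was sequenced as poly(A)-selected libraries made with a stranded kit. The authors trimmed adapters (Trimmomatic 0.38), aligned to mm10 (GRCm38) and counted reads per gene with STAR 2.5.2b; the deposited values are raw counts, without normalization, for 45706 Ensembl identifiers, of which 14977 had 0 counts in all libraries. The annotation release and strand setting are not given in the sources used here. No columns were left unmapped (0), and 563 identifiers, with 0.0643% of the counts, had no symbol in GENCODE vM21.

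Counts of 14 libraries were scaled by TMM factors (0.926 to 1.07), filtered with filterByExpr to 18983 genes and fitted with all 4 genotypes by edgeR 4.0.16 (robust quasi-likelihood, Benjamini-Hochberg adjustment over all genes, threshold 0.05, common biological coefficient of variation 0.251) in R 4.3.3. Intervals of 95% came from that fit. Log2 CPM used a prior count of 2. Single values were compared by exact two-sided permutation, and correlations by 100000 permutations within genotypes. The library with the fewest counts allows up to 0.0295 CPM at a count of 0 (3 counts), which covers counting error only, and counting alone gave a coefficient of variation of at most 2.91% for a member. Between replicates the chi-square per gene was 29.6 to 557, far above the value that counting alone gives.

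All 8 members were named in every comparison. In each of 6 pathway lists, genes with an adjusted p under 0.05 and the 3 with the smallest p over the 4 genotypes were named, and for each member the most similar gene outside the lists. Of the genes so chosen, 1 is not reported here. The members and lists were chosen with earlier results of these data known. Alternatives were a fit of 15 libraries, scaling by library size, DESeq2 size factors, no filter or at least 1 CPM in 3 libraries, a replicate block, an Xist covariate, only the groups compared, limma-voom (limma 3.58.1), DESeq2 1.42.0 and leaving out each library. The calculations were tested on simulated data. Promoters came from RefSeq (GRCm38.p6) and coding stretches from GENCODE vM21. Protein sequences were not used here.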

Additional observations from a re-analysis of the deposited data

Results flagged for a closer look

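Of 33 groups of 4 libraries examined for a sample far from the others (Dixon's test of the gap over the range), 3 held one, and chance gives about 1 in 20. Casp6 in replicate 2 with the label G3 mTerc-/-Puma-/- stood at 10.2 CPM, with the other 3 at 17.9 to 18.2 CPM (gap over range 0.96). This is the library left out of the tests. Cycs in G3 mTerc-/-Puma+/+ replicate 2 stood at 179 CPM, with the others at 114 to 123 CPM (gap over range 0.874). Diablo in G3 mTerc-/-Puma+/+ replicate 1 stood at 32.6 CPM, with the others at 36.8 to 37.0 CPM (gap over range 0.967). Of the 8 genes, 0 had an interaction of mTerc and Puma past the threshold in edgeR's test.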

How the results depend on the processing

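Of the 8 members, 0 were called in any of 25 settings, with the lowest adjusted p at 0.140 (edgeR's quasi-likelihood test, without Puma-/- replicate 3). The 27 values of single genes were taken for each named gene in the pair of genotypes with its smallest p. Cycs was also taken for mTerc-/- against mTerc+/+. They kept their direction in all 646 combinations with an alternative, which such a choice favours, so this does not measure how firm the directions are. Of the combinations, 634 also kept their side of the threshold. The other 12 came to pass it, all of pathway genes outside the members. Those include Bid and Birc5 without Puma-/- replicate 3 (edgeR adjusted p = 0.0423 and 0.0463) and Xaf1 without G3 mTerc-/-Puma+/+ replicate 1 (edgeR adjusted p = 0.0377).

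The counts over all genes moved far more, and the cause was not tested. With DESeq2, 136 genes passed in Puma-/- against WT (16 with edgeR), 46 in G3 mTerc-/-Puma+/+ against WT (7), 996 in G3 mTerc-/-Puma+/+ against Puma-/- (155), 91 in the libraries with the double-mutant label against WT (12), 287 in them against Puma-/- (63), 172 between the mTerc-/- groups (13), 64 for the interaction (8), 252 for mTerc with both Puma labels (50) and 836 over the 4 genotypes (100). In the same order of comparisons, leaving out each library gave 10 to 29, 3 to 9, 17 to 224, 4 to 20, 22 to 103, 5 to 49, 5 to 12, 25 to 104 and 36 to 117 genes. With all 15 libraries, 24 genes passed in G3 mTerc-/-Puma+/+ against Puma-/-, 6 between the mTerc-/- groups, 32 for mTerc and 51 over the 4 genotypes. With the Xist covariate the counts against Puma-/- were 17 for G3 mTerc-/-Puma+/+ and 37 for the libraries with the double-mutant label, 26 for mTerc and 38 over the 4 genotypes. Fits of only the groups compared gave 4 and 6 genes for the mTerc-/- groups against WT, 115 for the libraries with the double-mutant label against Puma-/- and 2 between the mTerc-/- groups. Limma-voom gave 24 between the mTerc-/- groups, 5 for the interaction and 65 over the 4 genotypes. Between the mTerc-/- groups, library size alone gave 8 and no count filter 26.

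Replicate numbers did not pair the samples. Deviations of same-numbered libraries had correlations of -0.253 to 0.175 (median 0.0203, 18 pairs, 3 over 0.1), and 3 of 14 libraries correlated best with their own number. The replicate block gave 46 genes for G3 mTerc-/-Puma+/+ and 25 for the libraries with the double-mutant label against Puma-/-, 21 between the mTerc-/- groups, 24 for mTerc and 44 over the 4 genotypes. Under the block 0 members were called (lowest adjusted p = 0.242).

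The 2 non-overlapping pairs of groups among the members became 1 with library size alone and 2 to 7 without 1 library, 7 without WT replicate 2 or without G3 mTerc-/-Puma+/+ replicate 2. The share over all genes was 8.03% in the main setting and is not given for these alternatives. Groups with fewer libraries fail to overlap more readily for any gene, so these counts are not a result about the members. The ratios to Xiap gave 0 tests with p under 0.05 under every alternative run. Of the 28 correlations, 3 passed by r, against 8 with all 15 libraries and 0 with genotype means kept. By rho 2 passed, against 7 and 1. No share over pairs of other genes was computed for these counts. Counting error was at most 2.91% for a member, and the 95% intervals reached a median of 0.193 to either side on the log2 scale.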
